A study of Mus musculus with 9 samples.

Results

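The 30 genes described here encode the enzymes that build cholesterol from acetyl-CoA, enzymes that make and desaturate long-chain fatty acids, and the regulators that set their transcription. They were taken as a list of symbols grouped by function. All 30 were found among the 24571 gene symbols used, and all 30 reached a 9-library mean of 1 TPM, the filter that left 13682 genes for testing. Bulk RNA sequencing had been done on hearts of C57BL/6N mouse embryos at E18.5, shortly before birth. Of the 9 libraries, 3 came from wild-type embryos, 3 from embryos heterozygous and 3 from embryos homozygous for CTCF-R567W, a substitution in the zinc-finger protein CTCF that was made with CRISPR/Cas9. The allele was a germline one and was not restricted to a heart cell type, and no other allele or treatment was given for any group. Expression was deposited as TPM, which is corrected for gene length and scaled to a common total, so levels of different genes can be set side by side but the number of reads behind them is unknown. The sources do not say whether the libraries of a group came from separate litters, so the p-values below measure only the spread between these libraries, which may be partly technical.

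Cholesterol synthesis starts with the mevalonate pathway, which turns acetyl-CoA into farnesyl diphosphate. The squalene enzymes then join and close the chain into lanosterol, and a further set of enzymes trims lanosterol to cholesterol. Fatty acid synthesis draws on the same acetyl-CoA through citrate cleavage, carboxylation and chain building. Both pathways are transcribed under SREBP factors, which are held in the endoplasmic reticulum by SCAP and the INSIG proteins while sterols are plentiful and are released by proteolysis when sterols fall. SREBP-2, from *Srebf2*, acts mostly on cholesterol genes, and SREBP-1c, a product of *Srebf1*, mostly on fatty acid genes. Genes under SREBP control often carry a sterol regulatory element next to a CCAAT box, to which NF-Y binds, and many of these genes therefore tend to rise and fall together.

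Promoter sequence of the members is shown because many members share a mode of transcription and because the mutated factor binds DNA. RefSeq promoters (GRCm38.p6, from 250 bases before to 50 bases after each annotated start) matched 24 of the 30 genes. Those without a promoter included *Fdps*, *Sqle*, *Fdft1*, *Scd1* and *Scd2*, so the counts below do not cover these genes. On either strand, the CCAAT box (CCAAT) was found in promoters of 20 of these 24 genes (83.3%), compared with 41.1% of 27025 genes with a promoter and 42.8% of 9948 tested genes with one. The E-box CACGTG was found in 5 of 24 (20.8%), in *Dhcr7*, *Hsd17b7*, *Insig1*, *Sc5d* and *Scap*, compared with 8.09% of all genes and 11.6% of tested genes. The strict sterol regulatory element (TCAC, any base, CCAC) was matched in *Hmgcs1* alone among the 24, and in 1.44% of all genes. A core of the CTCF motif (CC, any 3 bases, AGGGGGC) was matched in *Scap* alone, and in 1.48% of all and 2.66% of tested genes. These matches are letters found in a window of fixed length and were not tested as binding sites. The 8 windows of 60 bases below each lie before the annotated gene of that name in GENCODE M21. Capitals mark the matched motifs, which in *Fasn* include a pair of overlapping CCAAT boxes on opposite strands.
Hmgcs1, chr13:119690169-119690228, plus strand, sterol regulatory element and CCAAT box: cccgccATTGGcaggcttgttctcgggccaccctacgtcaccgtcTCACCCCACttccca
Mvk, chr5:114444201-114444260, plus strand, CCAAT boxes: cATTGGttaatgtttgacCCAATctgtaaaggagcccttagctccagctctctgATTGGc
Mvd, chr8:122443431-122443490, minus strand, CCAAT boxes: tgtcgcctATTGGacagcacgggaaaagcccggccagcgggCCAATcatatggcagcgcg
Hsd17b7, chr1:169969319-169969378, minus strand, CCAAT box and E-box: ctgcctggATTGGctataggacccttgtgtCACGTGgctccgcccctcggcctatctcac
Insig1, chr5:28071303-28071362, plus strand, E-box: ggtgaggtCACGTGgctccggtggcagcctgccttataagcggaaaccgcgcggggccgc
Insig2, chr1:121332590-121332649, minus strand, CCAAT boxes: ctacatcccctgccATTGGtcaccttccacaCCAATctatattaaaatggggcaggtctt
Fasn, chr11:120824586-120824645, minus strand, CCAAT boxes: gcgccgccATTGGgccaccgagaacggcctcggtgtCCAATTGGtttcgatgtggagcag
Scap, chr9:110333228-110333287, plus strand, CTCF core: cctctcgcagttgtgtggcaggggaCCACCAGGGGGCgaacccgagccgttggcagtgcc

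The libraries carried the transcripts of heart muscle, with all 12 cardiomyocyte markers at or above 1 TPM in each of the 9 libraries and a summed level between 40719 and 57976 TPM. In all, 3 libraries stood apart through transcripts of other organs. Heterozygous replicate 1 held 3278 TPM of 14 liver markers (17.9 to 70.3 TPM in the other 8 libraries) and 1633 TPM of 12 airway and lung markers. Wild-type replicate 1 held 3621 TPM of the airway and lung markers, and homozygous replicate 3 held 780.9 TPM of 15 thymocyte markers, against 3.27 to 5.88 TPM elsewhere. Adipocyte markers summed to 472 to 646 TPM, and of 10 listed markers only 3 or 4 reached 1 TPM in a library. *Xist*, the RNA of the inactive X chromosome, was high in all 3 heterozygous libraries and in replicate 1 of the other 2 genotypes, so the sex of the embryos was not balanced between groups. *Ctcf* itself ranged from 27.0 to 34.3 TPM in wild-type, from 33.2 to 38.7 TPM in heterozygous and from 38.9 to 50.2 TPM in homozygous libraries. A substitution leaves the transcript in place, so these levels do not check the genotype labels.

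The pathway was expressed throughout, at levels that differed widely between its genes. On the TPM scale, *Scd2*, a stearoyl-CoA desaturase, had the highest mean over the 9 libraries, 176 TPM. *Hmgcs1*, the cytosolic HMG-CoA synthase, followed at 49.8 TPM and *Fdps*, the farnesyl diphosphate synthase, at 49.3 TPM. The lowest means were those of *Scd1* (3.75 TPM), of *Elovl6*, an elongase of saturated fatty acids (4.03 TPM), and of *Lss*, the lanosterol synthase (5.04 TPM). The other 24 genes lay between 8.46 TPM for *Acat2* and 37.1 TPM for *Srebf2*.

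The first question was how the list behaved in homozygous compared with wild-type hearts. No member passed the test (0 of 30, limma, adjusted p under 0.05), where 0.336% of the 13682 tested genes did. At an unadjusted p under 0.05, *Fasn* was higher and *Fdps*, *Sqle* and *Scd2* were lower. That is 1 of 30 higher and 3 of 30 lower, compared with 22.9% of all tested genes higher and 2.16% lower. The median log2 change of the 30 genes was 0.01, while the median over all tested genes was 0.23, since most genes had higher TPM in the homozygous libraries (81.7% had a log2 change above 0). Relative to that general shift the members' median was -0.22, and 27 of the 30 genes lay below the all-gene median. The 3 genes above it were *Tm7sf2*, *Sc5d* and *Fasn*. The count of genes below the all-gene median lay between 23 and 28 over the 23 alternative analyses, and was 26 with the 3 libraries that carried liver, airway or thymocyte transcripts left out. Heart muscle transcripts gave a like picture, with 11 of 12 cardiomyocyte markers below the all-gene median and a median of -0.31 relative to it. For red cells, 7 of 7 tested erythroid markers lay below the all-gene median, with a median of -0.91 relative to it. Their summed TPM was 2853 to 14604 (wild type), 5114 to 15546 (heterozygous) and 4306 to 5148 (homozygous). The part of either cell type in the members' values was not tested. As the RNA came from whole hearts, fewer cells of a type and less RNA per cell cannot be told apart.

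**Figure D1:**
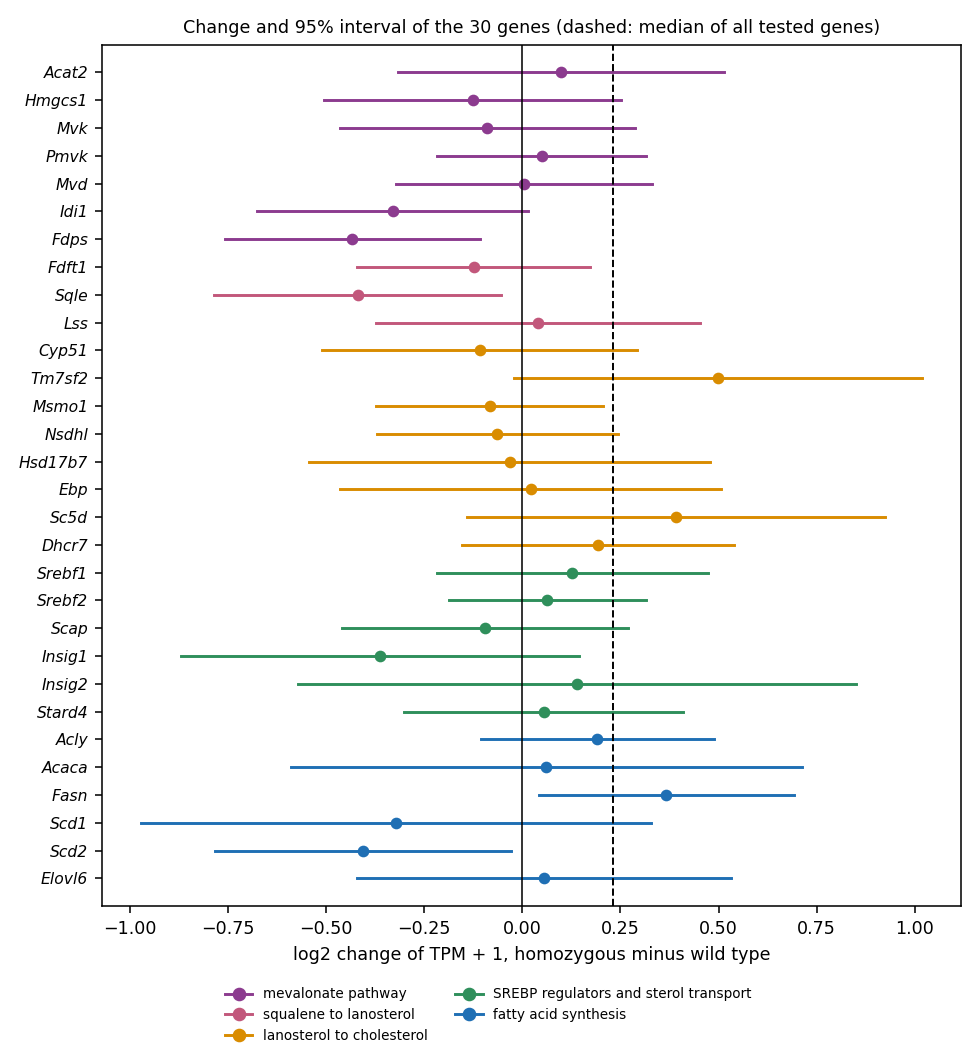
Log2 change of TPM + 1 in homozygous minus wild-type hearts for each of the 30 genes (points, coloured by role) with its 95% interval from the limma model (lines). The solid line marks 0 and the dashed line the median of all 13682 tested genes, 0.23. Of the 30 points, 27 lie left of the dashed line, and the intervals of 26 genes include 0.

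The mevalonate enzymes all lay below the all-gene median in this comparison (7 of 7), with a median log2 change of -0.09. *Fdps* makes the farnesyl diphosphate from which both sterols and prenyl groups are derived. Its level was 56.0, 56.4 and 49.8 TPM (wild type), 64.7, 52.0 and 45.2 TPM (heterozygous) and 45.4, 36.2 and 38.1 TPM (homozygous). Each homozygous value lay below each wild-type value, while the heterozygous values spread across both groups. The log2 change from wild type to homozygous was -0.43 ± 0.15 (SE, 95% interval -0.76 to -0.11), with a limma adjusted p of 0.132. Over the alternatives it ranged from -0.67 to -0.37, and the adjusted p from 0.0539 to 0.413. In the annotation *Fdps* overlaps *Gm43738* on the same strand (mm10, chromosome 3, 89093588 to 89101959 for *Fdps*), and 27.9% of the 31-base words of its transcripts also occur in other genes, so part of its level may depend on how reads were divided.

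*Idi1*, the isopentenyl diphosphate isomerase, acts just before *Fdps*. It stood at 29.4, 30.8 and 34.3 TPM (wild type), 37.0, 28.1 and 25.7 TPM (heterozygous) and 28.9, 23.2 and 22.7 TPM (homozygous). Again the homozygous values lay below the wild-type ones without overlap, and the widest spread was among the heterozygous libraries. The log2 change was -0.33 ± 0.16 (SE), with a limma adjusted p of 0.213. *Idi1* shares 18.8% of its words, mostly with *Gm13502*. Non-overlap of this kind was found for 3 members in the lower direction (*Fdps*, *Idi1* and *Sqle*) and for 1 in the higher direction (*Tm7sf2*). Over all tested genes it was found for 2.38% and 22.3%.

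*Hmgcs1*, which catalyses the first step committed to mevalonate, measured 44.4, 50.4 and 53.8 TPM (wild type), 61.3, 48.7 and 51.9 TPM (heterozygous) and 51.5, 52.3 and 34.1 TPM (homozygous). Homozygous replicate 3 alone lay below the wild-type range. The log2 change from wild type was -0.13 ± 0.17 (SE), and its sign turned with that library left out. *Mvk* and *Pmvk*, the kinases of the pathway, and *Mvd*, the decarboxylase, had log2 changes of -0.09, 0.05 and 0.00 in homozygous compared with wild-type hearts. *Mvd* was at 8.61 ± 1.37, 10.4 ± 1.30 and 8.58 ± 0.43 TPM in wild-type, heterozygous and homozygous hearts (mean ± SD, n = 3 each). *Mvk* was at 14.4 ± 0.60, 15.1 ± 2.25 and 13.7 ± 3.23 TPM in that order. *Pmvk* was at 21.9 ± 0.37, 24.8 ± 0.49 and 22.9 ± 3.20 TPM. *Acat2*, which condenses acetyl-CoA at the head of the pathway, was at 8.06 ± 1.67, 8.68 ± 1.76 and 8.64 ± 1.18 TPM, and shares 43.7% of its words with *Acat3*, so its level is uncertain. None of these 4 genes differed beyond the spread of the libraries between homozygous and wild-type hearts, with limma adjusted p between 0.746 and 0.987.

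**Figure D2:**
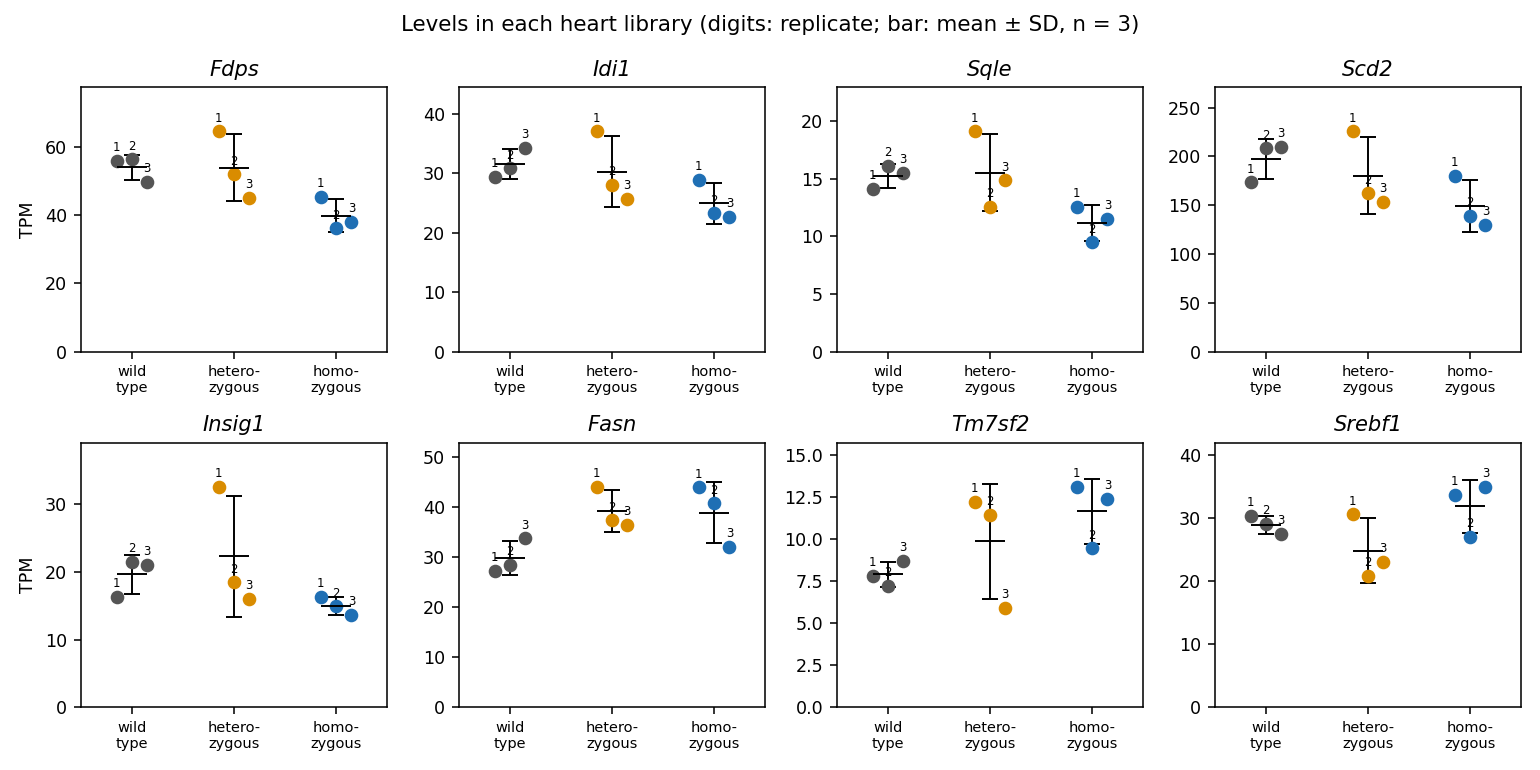
TPM of 8 of the genes in each of the 9 heart libraries (points, labelled with the replicate number) by genotype, with the mean and SD of the 3 libraries of a genotype (bars). The homozygous values of *Fdps*, *Idi1* and *Sqle* lie below the 3 wild-type values, and heterozygous replicate 1 is the highest library for *Fdps*, *Idi1*, *Sqle*, *Scd2*, *Insig1* and *Fasn*.

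Among the 3 enzymes from farnesyl diphosphate to lanosterol, the median log2 change in homozygous compared with wild-type hearts was -0.12. *Sqle*, the squalene epoxidase and a rate-controlling step of the later pathway, stood at 14.1, 16.1 and 15.5 TPM (wild type), 19.1, 12.5 and 14.9 TPM (heterozygous) and 12.6, 9.48 and 11.5 TPM (homozygous). All 3 homozygous libraries were below all 3 wild-type libraries, by a log2 change of -0.42 ± 0.16 (SE, 95% interval -0.79 to -0.05) and a limma adjusted p of 0.159. *Fdft1*, the squalene synthase, was at 10.7 ± 0.64, 11.9 ± 1.22 and 9.76 ± 1.10 TPM in wild-type, heterozygous and homozygous hearts (mean ± SD, n = 3). It shares 14.3% of its words with *Gm6781*. *Lss*, which closes squalene epoxide into the first sterol, was at 4.34 ± 0.60, 6.31 ± 1.57 and 4.47 ± 0.13 TPM. The high heterozygous mean of *Lss* rested on replicates 1 and 2, at 7.09 and 7.34 TPM, with replicate 3 at 4.50 TPM.

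The 8 enzymes from lanosterol to cholesterol split in direction on the deposited scale, with a log2 change above 0 for 4 genes and below 0 for 4 in homozygous compared with wild-type hearts. *Tm7sf2*, a sterol C14 reductase, had the highest value of the list, 0.50 ± 0.23 on the log2 scale (SE, 95% interval -0.02 to 1.02), and missed the limma threshold at an adjusted p of 0.213. It stood at 7.79, 7.20 and 8.69 TPM (wild type), 12.2, 11.4 and 5.91 TPM (heterozygous) and 13.1, 9.44 and 12.4 TPM (homozygous). The homozygous libraries were all above the wild-type ones, and the heterozygous libraries reached from below the lowest to near the highest value. After median-ratio scaling the homozygous and wild-type values overlapped. *Tm7sf2* overlaps *Vps51* on the same strand of chromosome 19 and shares 12.9% of its words.

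*Sc5d*, the lathosterol desaturase, was at 4.85, 8.27 and 10.8 TPM (wild type), 13.8, 8.99 and 10.4 TPM (heterozygous) and 10.04, 9.96 and 10.9 TPM (homozygous). Its log2 change of 0.39 ± 0.24 (SE) came with a limma adjusted p of 0.312, and the low value was that of wild-type replicate 1. *Dhcr7*, which catalyses the last step of one branch, measured 10.6, 10.9 and 13.9 TPM in wild-type hearts. Its heterozygous values were 13.8, 9.96 and 13.3 TPM and its homozygous values 12.6, 14.5 and 13.6 TPM, so that the groups overlapped. The log2 change of 0.19 ± 0.16 (SE) turned below 0 after median-ratio scaling and after quantile normalization.

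The other 5 enzymes of this stretch had log2 changes between -0.11 and 0.02. *Cyp51*, the lanosterol demethylase, was at 15.3 ± 3.07, 15.4 ± 2.22 and 14.04 ± 2.41 TPM in wild-type, heterozygous and homozygous hearts (mean ± SD, n = 3). *Msmo1* and *Nsdhl*, which remove the C4 methyl groups, were at 17.2 ± 1.63, 21.4 ± 2.48 and 16.1 ± 1.15 TPM and at 11.2 ± 0.34, 12.6 ± 1.82 and 10.7 ± 1.22 TPM. *Hsd17b7*, the ketosteroid reductase that works beside them, was at 12.6 ± 2.39, 14.7 ± 0.58 and 12.7 ± 4.32 TPM. *Ebp*, a sterol isomerase, was at 14.3 ± 3.41, 13.8 ± 1.10 and 14.7 ± 4.40 TPM. Both *Hsd17b7* and *Ebp* spread widely in homozygous hearts, where replicate 3 was the lowest of the 9 libraries, at 7.69 and 10.3 TPM.

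The 6 listed genes of SREBP control and sterol transport (*Srebf1*, *Srebf2*, *Scap*, *Insig1*, *Insig2* and *Stard4*) had a median log2 change of 0.06 in homozygous compared with wild-type hearts, and 6 of 6 lay below the all-gene median. *Srebf2*, which encodes the factor acting mostly on cholesterol genes, stood at 31.2, 34.9 and 38.9 TPM (wild type), 40.3, 40.7 and 38.1 TPM (heterozygous) and 38.8, 36.1 and 34.6 TPM (homozygous). The groups overlapped, and the 95% interval of the homozygous change reached from -0.19 to 0.31 on the log2 scale. *Srebf1*, which encodes SREBP-1a and SREBP-1c, measured 30.3, 29.1 and 27.5 TPM (wild type), 30.6, 20.9 and 23.0 TPM (heterozygous) and 33.6, 27.1 and 34.9 TPM (homozygous). Its log2 change was 0.13 ± 0.16 (SE) from wild type to homozygous and 0.36 ± 0.16 (SE) from heterozygous to homozygous, where the limma adjusted p was 0.698. The homozygous changes of *Srebf1* and *Srebf2* against wild type turned below 0 after median-ratio scaling and after quantile normalization.

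*Insig1*, which holds the SCAP-SREBP complex back and is itself an SREBP target, was at 16.31, 21.5 and 21.1 TPM (wild type), 32.6, 18.46 and 16.0 TPM (heterozygous) and 16.34, 14.9 and 13.7 TPM (homozygous). Heterozygous replicate 1 lay far above the other 8 libraries. Homozygous replicates 2 and 3 lay below all wild-type values, and homozygous replicate 1 just above the lowest of them. The log2 change was -0.36 ± 0.23 (SE, 95% interval -0.87 to 0.14, limma adjusted p 0.323). *Insig2*, the other retention protein, had the largest standard error of the 30 genes (0.32 on the log2 scale), with 17.7, 27.4 and 29.9 TPM (wild type), 27.5, 26.9 and 42.7 TPM (heterozygous) and 30.9, 40.1 and 15.7 TPM (homozygous). Its homozygous change had a 95% interval from -0.57 to 0.85. *Scap*, the escort protein of SREBP, whose promoter holds the CTCF core shown above, was at 9.70, 14.4 and 13.3 TPM (wild type), 11.6, 12.4 and 14.3 TPM (heterozygous) and 10.5, 13.1 and 10.8 TPM (homozygous). The groups overlapped, with a log2 change of -0.10 ± 0.16 (SE, 95% interval -0.46 to 0.27, limma adjusted p 0.720). *Stard4*, a carrier of cholesterol between membranes, was at 10.3 ± 1.68, 12.1 ± 0.98 and 10.8 ± 1.79 TPM (mean ± SD, n = 3).

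The 6 fatty acid genes had log2 changes between -0.41 and 0.37 in homozygous compared with wild-type hearts, and 5 of 6 lay below the all-gene median. *Fasn*, the fatty acid synthase, stood at 27.2, 28.5 and 33.7 TPM (wild type), 44.0, 37.3 and 36.4 TPM (heterozygous) and 43.9, 40.7 and 32.0 TPM (homozygous). All heterozygous libraries exceeded all wild-type libraries, and 2 of the 3 homozygous libraries did. The log2 change was 0.37 ± 0.15 (SE, limma adjusted p 0.165) in homozygous and 0.39 ± 0.15 (SE, limma adjusted p 0.672) in heterozygous hearts. With library weights (arrayWeights) *Fasn* passed the homozygous test, at a limma adjusted p of 0.0120, in a fit that called 37% of all tested genes. Over the alternatives its log2 change ranged from 0.13, after median-ratio scaling, to 0.53.

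The stearoyl-CoA desaturases among the members, *Scd2* and *Scd1*, had values below 0 on the same scale. *Scd2*, which puts the first double bond into saturated fatty acids, measured 174, 208 and 210.1 TPM (wild type), 226, 162 and 153 TPM (heterozygous) and 180.1, 139 and 130.0 TPM (homozygous). Homozygous replicate 1 overlapped the wild-type range and the other 2 homozygous libraries lay below it. The log2 change was -0.41 ± 0.17 (SE, 95% interval -0.78 to -0.03), with a limma adjusted p of 0.177. *Scd1*, its liver and adipose relative, was low, at 4.23, 3.39 and 3.64 TPM (wild type), 7.80, 3.03 and 3.17 TPM (heterozygous) and 3.77, 2.45 and 2.31 TPM (homozygous). Its highest value was in heterozygous replicate 1, the library with liver transcripts, and the part of those transcripts in it was not tested. The homozygous change of *Scd1* was -0.32 ± 0.29 (SE) on the log2 scale of TPM + 1. *Scd1* and *Scd2* share 8.14% and 6.81% of their words with other genes, mostly *Scd3*.

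*Acly*, which makes cytosolic acetyl-CoA from citrate, was at 26.7, 32.0 and 32.2 TPM (wild type), 33.8, 28.6 and 30.6 TPM (heterozygous) and 37.6, 37.0 and 29.8 TPM (homozygous). The groups overlapped, and the log2 change of 0.19 ± 0.13 (SE) turned to just below 0 after median-ratio scaling and after quantile normalization. *Acaca*, the acetyl-CoA carboxylase, was at 11.3 ± 3.41, 11.9 ± 4.22 and 11.9 ± 4.46 TPM in wild-type, heterozygous and homozygous hearts (mean ± SD, n = 3), with 33.4% of its words shared, mostly with *Gm5182*. *Elovl6* was at 3.77 ± 0.82, 4.41 ± 1.42 and 3.92 ± 0.30 TPM.

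The comparison of homozygous with heterozygous hearts shared the homozygous libraries with the one above. Again 0 of 30 members passed the test, where 0.0439% of all tested genes did. The members' median log2 change was -0.15 and the all-gene median 0.08, and 26 of the 30 genes lay below the latter. The 18 sterol enzymes had a median of -0.23. At an unadjusted p under 0.05, *Fdps*, *Msmo1* and *Sqle* were lower and *Srebf1* was higher, which is 3 and 1 of 30 beside 2.32% and 4.83% of all tested genes. *Fdps* differed by -0.42 ± 0.15 (SE), *Sqle* by -0.43 ± 0.16 (SE) and *Msmo1* by -0.38 ± 0.13 (SE) on the log2 scale, with limma adjusted p between 0.650 and 0.663. The homozygous values of *Msmo1* and *Mvd* lay below the heterozygous ones without overlap, as did those of 3.85% of all genes. This comparison depended on which libraries entered. Without heterozygous replicate 1 the members' median was -0.11, and without homozygous replicate 3 it was -0.09. Without the 3 libraries that carried transcripts of other organs it was 0.02, beside an all-gene median of 0.13.

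In heterozygous compared with wild-type hearts, which shared groups with both other comparisons, the members' median lay close to that of all genes. None of the 30 passed the test, where 0.0146% of all tested genes did. The median log2 change was 0.13, beside 0.15 for all genes, and 16 of 30 genes lay below the all-gene median. *Fasn*, *Lss* and *Msmo1* were higher at an unadjusted p under 0.05, and no member was lower, beside 6.29% and 0.577% of all tested genes. The groups did not overlap for *Fasn*, *Msmo1* and *Pmvk*, each higher in heterozygous hearts, beside 12.8% of all genes, and 1.03% of all genes were lower without overlap. Without heterozygous replicate 1 the median was 0.01, without wild-type replicate 1 it was 0.05, and without that library and wild-type replicate 1 it was -0.05. The order of the genotype means is given as a description. Heterozygous hearts had the highest mean for 11 members with homozygous lowest and for 10 members with wild type lowest, compared with 1207 and 2479 of the 13682 tested genes. Heterozygous replicate 1 was the highest library for 17 of the 30 members, and the orders were not recomputed without it. By contrast, 4 of the 30 members had means ordered wild type, heterozygous, homozygous from low to high, which was the order of 7391 tested genes.

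The libraries within a genotype differed as much as the genotypes. Heterozygous replicate 1 was the highest of the 9 libraries for 17 of the 30 members (56.7%), compared with 6.66% of all tested genes. Homozygous replicate 3 was the lowest for 14 (46.7%), compared with 16.3%. The median log2 deviation of the members from their 9-library mean was -0.22, -0.02 and 0.10 in the wild-type, 0.31, -0.01 and 0.04 in the heterozygous and 0.06, -0.05 and -0.25 in the homozygous libraries. The genotypes overlapped on this scale, and the wild-type libraries were spread as widely as the homozygous ones. Median-ratio scaling, which sets the typical gene equal in all libraries, gave 0.02, 0.17 and 0.05 in wild-type, 0.28, 0.04 and -0.06 in heterozygous and -0.09, -0.23 and -0.23 in homozygous libraries. On that scale the 3 homozygous values were the lowest of the 9. These deviations are descriptions and carry no test.

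**Figure D3:**
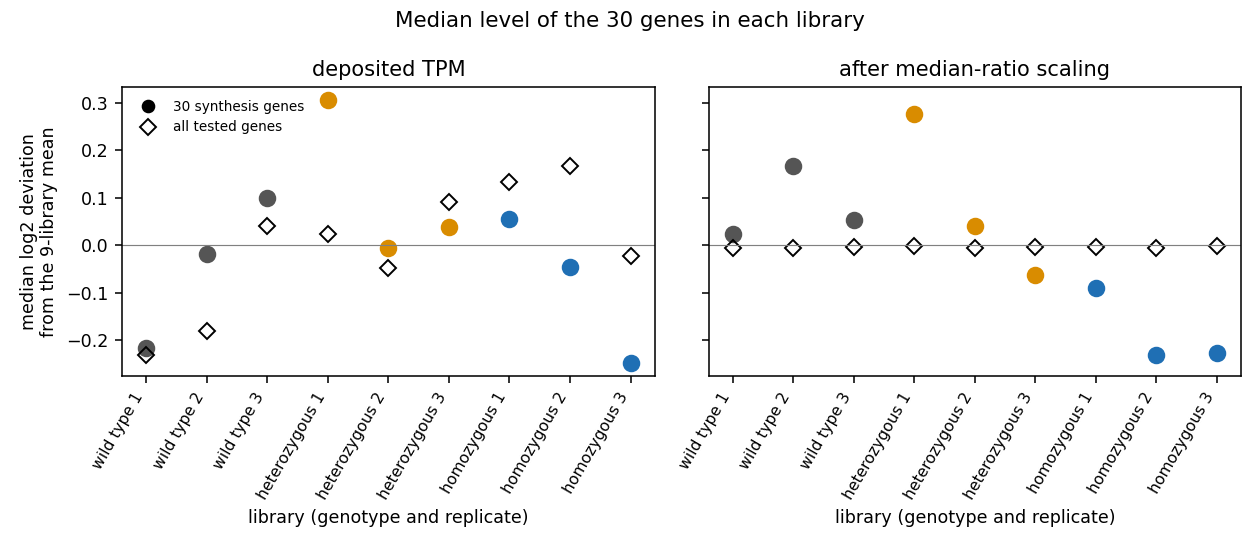
Median log2 deviation of the 30 genes (filled circles, grey wild type, orange heterozygous, blue homozygous) and of all 13682 tested genes (open diamonds) from their 9-library mean, for each library, in the deposited TPM (left) and after median-ratio scaling (right). Heterozygous replicate 1 is highest in both panels, at 0.31 and 0.28, and the homozygous libraries are the 3 lowest on the right.

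On the median-ratio scale 11 members had homozygous values below all wild-type values, *Hmgcs1*, *Idi1*, *Fdps*, *Fdft1*, *Sqle*, *Msmo1*, *Srebf2*, *Scap*, *Insig1*, *Scd1* and *Scd2*, and no member had values above. Over all tested genes the shares were 12.2% and 10.3%. Against the heterozygous libraries, 10 members were lower without overlap and none higher, beside 9.31% and 7.64% of all genes. In heterozygous compared with wild-type hearts, *Fasn* alone was separated, and it was higher, beside 6.07% of all genes higher and 6.97% lower. None of these members passed the limma test on this scale (0 of 30). The all-gene median was 0.02 there, and the members' median -0.21.

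**Figure D4:**
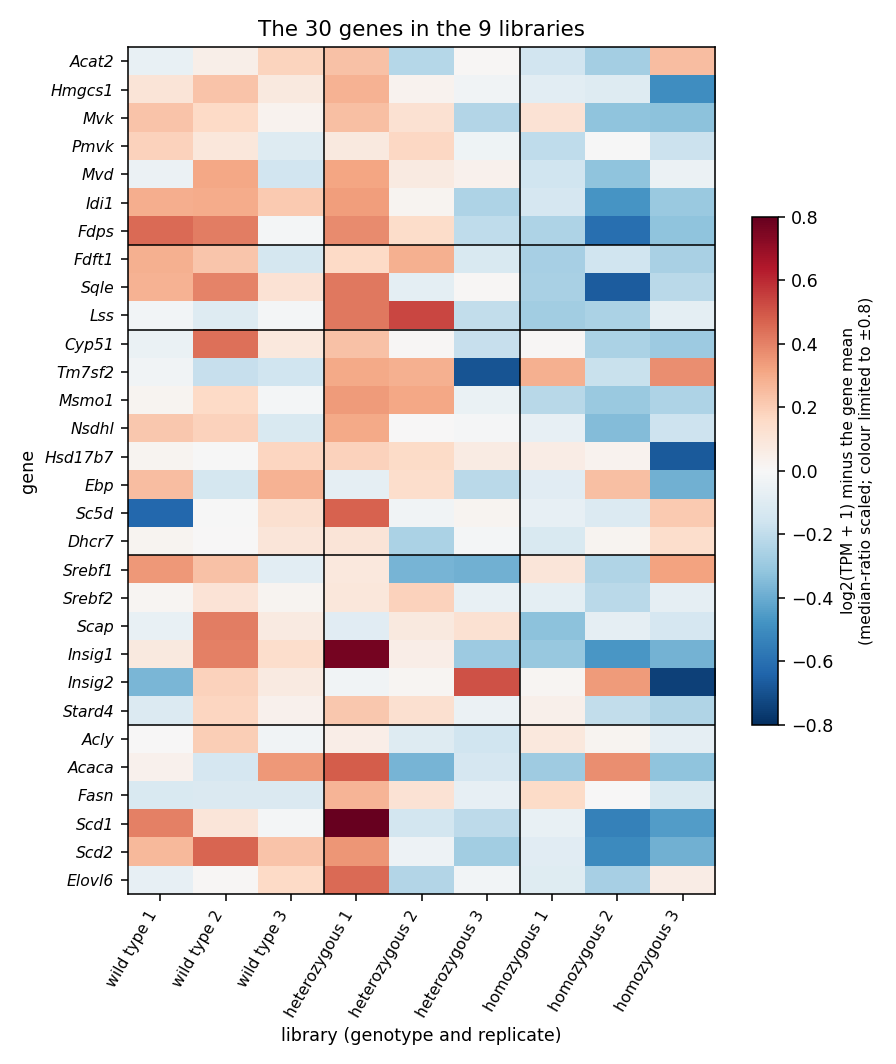
The 30 genes (rows, grouped by role) in the 9 libraries (columns), coloured by log2(TPM + 1) after median-ratio scaling minus the gene's mean over the libraries, with colours limited to ±0.8. The blue cells are most frequent in the homozygous columns and the darkest red cells stand in the column of heterozygous replicate 1, at *Insig1* and *Scd1*.

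The pathway has further members and neighbours, of which 66 were in the table and 58 passed the filter, in 5 lists. Of the 58, 1 passed the test in homozygous compared with wild-type hearts, beside 0.336% of all tested genes. This was *Mylip*, an E3 ubiquitin ligase that sends lipoprotein receptors to degradation and is induced when sterols are plentiful. It stood at 4.01, 4.08 and 4.88 TPM (wild type), 6.24, 4.47 and 6.55 TPM (heterozygous) and 10.1, 10.8 and 8.20 TPM (homozygous). All homozygous libraries were above all others, while the heterozygous libraries overlapped the wild-type ones. The log2 change was 1.01 ± 0.17 (SE, limma adjusted p 0.0484). The call was kept in 7 of the 23 alternatives, with adjusted p from 0.00404 to 0.321, and it was lost when any library other than wild-type replicate 3 or homozygous replicate 3 was left out. Its log2 change stayed between 0.66 and 1.15.

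The medians of the 5 lists are given as descriptions. Relative to the all-gene median, the medians in homozygous compared with wild-type hearts were -0.13 for 10 other isoprenoid and sterol enzymes and -0.01 for 7 genes of SREBP processing and sterol sensing. They were 0.00 for 14 genes of cholesterol uptake, storage and efflux, -0.04 for 19 of fatty acid supply, elongation and desaturation and -0.05 for 8 of glycerolipid assembly. Over all 58 genes 11 were higher and 2 lower at an unadjusted p under 0.05, beside 22.9% and 2.16% of all tested genes, so these counts are given as descriptions. The 2 lower ones were *Mlxipl*, which encodes the carbohydrate-responsive lipogenic factor ChREBP, and *Hacd1*, a muscle dehydratase of fatty acid elongation.

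*Mlxipl* measured 6.51, 5.15 and 6.67 TPM (wild type), 6.89, 5.41 and 6.70 TPM (heterozygous) and 3.88, 3.27 and 4.12 TPM (homozygous). The homozygous libraries were below the other 6 without overlap, by a log2 change of -0.58 ± 0.16 (SE) against wild type and a limma adjusted p of 0.112. *Hacd1* was at 123, 143 and 138 TPM (wild type), 124, 126 and 139.5 TPM (heterozygous) and 118, 103 and 93.5 TPM (homozygous), again without overlap. Its log2 change was -0.36 ± 0.11 (SE, limma adjusted p 0.126).

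The higher genes at the same unadjusted threshold that also had the highest values of their lists were *Mylip* and 7 others. *Lpin1* and *Lpin2*, phosphatidate phosphatases of glycerolipid assembly, differed by 0.61 and 0.47 on the log2 scale. *Oxsm*, a synthase of mitochondrial fatty acid synthesis, differed by 0.57 and *Hacd3*, an elongation dehydratase, by 0.39. *Mbtps1*, the first protease that cuts SREBP, and *Ggps1*, which makes geranylgeranyl diphosphate, both differed by 0.38, and *0610007P14Rik* by 0.31. Their limma adjusted p lay between 0.128 and 0.190. Outside that rule, *Abca1*, *Npc1* and *Nr1h2*, of cholesterol uptake, storage and efflux, were also higher at this threshold. They differed by 0.70, 0.47 and 0.31, with limma adjusted p of 0.125, 0.118 and 0.154. *Abca1* had a mean of 4.32 TPM, below the cut. The other named extremes missed the unadjusted threshold. Among them *Soat1*, which esterifies cholesterol, had a log2 change of 0.55 and *Erlin2*, an endoplasmic reticulum protein of sterol sensing, of 0.34. At the low end, *Tmem97*, a sterol-responsive membrane protein, was at -0.26, the lipoprotein receptor gene *Vldlr* at -0.19 and *Pdss1*, of ubiquinone synthesis, at -0.18. *Dgat2*, an enzyme of triacylglycerol synthesis, was at -0.14, the acyltransferase gene *Agpat2* at -0.00058 and *Rnf139*, a ubiquitin ligase, at 0.11.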

How the data were processed

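RNA had been extracted from E18.5 hearts, captured as mRNA on beads and sequenced by the authors. They trimmed reads with Trim Galore, aligned them to mm10 with STAR and quantified genes with RSEM, and deposited TPM per gene and library. The annotation release and use of strand are not given in the sources used here. TPM keeps no depth, so counting error is unknown and precision rests on the spread between libraries. The authors tested counts with DESeq2, which was not run here because the values are TPM. They name *Fdps* among the genes downregulated in homozygous hearts, by a test and thresholds unlike those used here.

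Of 24597 symbols, 26 turned into dates were left out. Groups were taken from the sample titles. Values were analysed as log2(TPM + 1), which understates changes of low genes, where the mean over libraries reached 1 TPM. All 9 libraries entered 1 genotype model in limma (v3.58.1; eBayes with a trend; R v4.3.3), with two-sided tests and Benjamini-Hochberg adjustment over all 13682 genes within a comparison. The procedure was tested on simulated data. The members, gene lists, marker lists and tests were chosen with earlier results of these data known.

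Every member was named. Values per library were given for *Fdps*, *Srebf1*, *Srebf2*, *Scap*, *Insig1*, *Insig2*, *Scd1*, *Scd2* and the 8 other members with a mean of at least 5 TPM and the largest absolute log2 change in homozygous against wild type. Single libraries of *Lss*, *Hsd17b7* and *Ebp*, and the changes of *Abca1*, *Npc1* and *Nr1h2* from other lists, were added after their values were seen. From other lists, called genes and, with a mean of at least 5 TPM, the 2 highest and 2 lowest changes of a list in that comparison were named, except 2 genes that are not reported here. Gene positions came from GENCODE M21 on mm10, and shared 31-base words from its transcripts. Alternatives were other pseudocounts, filters, scalings and limma settings, the *Xist* level as a covariate, a replicate block, and fits without single libraries or those with transcripts of other organs.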

Additional observations from a re-analysis of the deposited data

How the results depend on the processing

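No member was called in any of the 3 comparisons under the 23 alternatives, except that arrayWeights called 1 (*Fasn*) in homozygous against wild type. The members' median log2 change in that comparison was -0.21 after median-ratio scaling and -0.27 after quantile normalization, and -0.08 to 0.08 when single libraries were left out. In homozygous against heterozygous it was 0.018 without the 3 libraries carrying liver, airway or thymocyte transcripts, a setting chosen after seeing the data, and -0.27 to -0.09 when single libraries were left out. In heterozygous against wild type it was -0.047 without the 2 libraries carrying liver or airway transcripts and -0.047 without all 3, and 0.01 to 0.19 when single libraries were left out. Counts of members below the all-gene median, added after seeing the data, were 25 to 28, 22 to 27 and 12 to 20 in these comparisons when single libraries were left out. The sign of an uncalled member's change turned in 201 of its alternative values over all members and comparisons. With the replicate number as a block, 0 members were called in each comparison. Over all genes 17, 1 and 1 were called, compared with 46, 6 and 2 without the block. Deviations of same-numbered libraries correlated between -0.03 and 0.36, with the highest values between wild type and heterozygous (0.36 for replicate 1, 0.30 for replicate 3). Differently numbered libraries were not compared, so this range cannot decide whether the numbers pair the samples. The study states no pairing, and the main model used none. With 3 libraries a group and a median standard error of 0.18 on the log2 scale, small changes could not be resolved, and the reads behind each value are unknown.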
